A study of Mus musculus with 6 samples.

Results

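The antioxidant enzymes described here are 10 genes that encode the cell's main defences against superoxide and peroxides: the superoxide dismutases Sod1 and Sod2, catalase (Cat), glutathione peroxidase 1 (Gpx1), the peroxiredoxins Prdx1, Prdx2, Prdx4, Prdx5 and Prdx6, and thioredoxin reductase 1 (Txnrd1). They were chosen by name, with earlier results of these data known, and all 10 were found among the 35237 genes of the expression table. The data came from 6 RNA-Seq libraries of untreated C57BL/6 mice at 6 weeks of age. BMDM were bone marrow monocytes sorted as CD11b+ CD45high CD115+ Ly6G- cells (n = 3 libraries), and BSM were brainstem microglia sorted as CD11b+ CD45low CD115low Ly6G- cells (n = 3 libraries). Every library was made from cells pooled over a set of mice, so the spread between libraries is the spread between pools and not between animals. RNA was amplified before sequencing. Expression is given as FPKM, fragments scaled by transcript length and by the mapped reads of the library, which allows levels to be compared between genes of different length. The groups differ in tissue of origin as well as in cell type, and these cannot be told apart.

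Superoxide, a by-product of respiration and of the phagocyte oxidase, is turned into hydrogen peroxide by the superoxide dismutases: Sod1 is the copper- and zinc-dependent enzyme of the cytosol, and Sod2 the manganese enzyme of the mitochondrial matrix. Hydrogen peroxide is then removed by catalase, mainly in peroxisomes, by glutathione peroxidases, which draw electrons from glutathione, and by peroxiredoxins, most of which draw them from thioredoxin. Thioredoxin is in turn kept reduced by thioredoxin reductase and NADPH. Many genes of these systems can be induced by NRF2 (Nfe2l2), a transcription factor that binds the antioxidant response element. Monocytes and microglia are both phagocytes that make superoxide.

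Among the 10 enzymes, Gpx1 and Txnrd1 are selenoproteins, whose reading frame holds a TGA codon that is read as selenocysteine instead of a stop. The codon was located in the GENCODE M21 transcripts (GRCm38) of both genes, and no such codon was present in frame in the other 8. It is shown in capitals within its flanking coding sequence, at codon 47 of 202 (stop included) on the plus strand at chr9:108339439-108339465 for Gpx1, and at codon 612 of 614 on the plus strand at chr10:82896025-82896045 for Txnrd1, just before the regular stop.

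Gpx1: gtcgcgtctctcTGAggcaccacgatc

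Txnrd1: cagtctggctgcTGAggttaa

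Promoter windows, from 250 bases before to 50 bases after each start site in RefSeq (GRCm38.p6), were searched on both strands for the core of the antioxidant response element, TGACNNNGC. A window was present for 9 of the 10 enzymes, Prdx6 being the one without, and 3 of the 9 (33.3%) held the letters: Prdx1, Sod1 and Txnrd1. The share was 14% among all 27025 genes with a window and 17.8% among the 4163 genes with a window that entered the expression comparison. All matches lay on the strand opposite to the gene, so that they read in reverse complement below, in capitals and with 10 flanking bases on each side. They begin at position -133 from the start site in Prdx1 (chr4:116685456-116685484, plus strand), -56 in Sod1 (chr16:90220696-90220724, plus strand) and -92 from the second of 3 start sites of Txnrd1 (chr10:82859104-82859132, plus strand). The Prdx1 match also overlaps the letters of an AP-1 site. A match describes the letters in the window and does not show binding.

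Prdx1: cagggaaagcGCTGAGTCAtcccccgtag

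Sod1: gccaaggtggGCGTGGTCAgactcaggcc

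Txnrd1: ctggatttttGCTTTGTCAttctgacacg

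The libraries differed in ways that bear on every value below. The FPKM of all genes added up to 163199 to 194184 per BMDM library and only 68288 to 75021 per BSM library, and no further scaling was applied unless stated. BSM replicate 1 stood apart, with 472 of the 6364 genes compared listed at 0, against 93 and 115 in the other BSM libraries and 51 to 96 in the BMDM libraries. Its RNA also had the lowest integrity and concentration readings of the 6 samples in the study's quality assessment, with an integrity far below the others. By fluorometer its RNA was below detection, as was that of BMDM replicate 2 and BSM replicate 2. BMDM replicate 2 also had the lowest share of mapped reads. The part of RNA quality and mapping in the values below was not tested. The labelled cell types were borne out by their markers: all 8 monocyte markers were higher in BMDM and all 10 microglia markers were higher in BSM. Among the latter was Csf1r, the gene of CD115, with 19.1 to 21.3 FPKM in BMDM and 102 to 158 FPKM in BSM. Its RNA thus ran opposite to the surface CD115 used in the sort. Genes of other marrow cells were also present in BMDM. The summed FPKM of 11 erythroid genes lay between 19.8 and 130.6 in BMDM, with Hbb-b2 highest in replicate 2 (43.2 FPKM), and between 0.00511 and 0.355 in BSM. The sum over 11 genes of granulocytes and their precursors lay between 65.3 and 374.6 in BMDM, with Mpo again highest in replicate 2 (181 FPKM), and between 0 and 0.0714 in BSM. For 11 genes of cycling cells, led by Mki67, the sum was 322.8 to 435.4 in BMDM and 9.81 to 20.6 in BSM. Among genes of brain cells, the astrocyte list reached 5.42 to 9.54 in BSM through Slc1a3, with Gfap at 0, and the neuron list did not exceed 0.249. The endothelial list, led by Pecam1, had sums of 2.37 to 4.07 in BMDM and 1.04 to 2.80 in BSM, the oligodendrocyte list, led by Mbp, 7.06 to 12.8 and 1.78 to 2.13, and the lymphocyte list, led by Nkg7, 0.607 to 8.86 and 0.317 to 0.524. The part of any of these cells in the values of the antioxidant enzymes was not tested. In sorted pools, fewer cells that express a gene and less RNA per cell cannot be told apart.

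Transcripts of 9 of the 10 enzymes were higher in every BMDM library than in any BSM library, and those of Prdx2 were higher in every BSM library than in any BMDM library. The comparison covered the 6364 genes that reached 3 FPKM in 1 library or more. Of these, 55.2% had all BMDM libraries above all BSM libraries and 11.6% the reverse. In limma on log2(FPKM + 1), with Benjamini-Hochberg adjustment over these 6364 genes, 8 of the 9 enzymes tested were higher in BMDM and 1 was higher in BSM at an adjusted p under 0.05. The background was 45.3% of all genes called higher in BMDM and 9.22% called higher in BSM. Prdx4 did not reach the FPKM minimum and was not tested. Prdx1, Prdx6, Sod2 and Txnrd1 reached it only through their BMDM values. The median log2 fold change of all 6364 genes was 0.81 in favour of BMDM, so the fold change of each enzyme tested is also given relative to that median. With 3 libraries in each group, the exact permutation test of a single gene cannot give a two-sided p below 0.1, which is the value all 10 enzymes had.

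**Figure D1:**
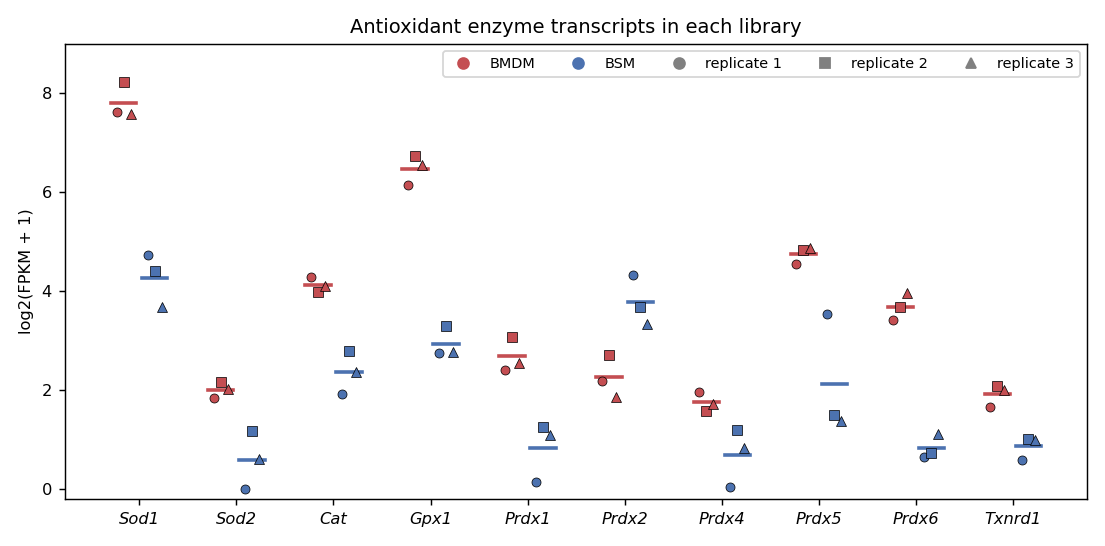
Expression of the 10 antioxidant enzymes as log2(FPKM + 1), with 1 point for each library (3 BMDM in red, 3 BSM in blue) and a bar at the mean of the 3 log values. Red lies above blue for 9 genes, by the most for Sod1, Gpx1 and Prdx6, and below it for Prdx2.

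Sod1 (ENSMUSG00000022982, mm9 chr16:90221039-90226574) was the most abundant of the 10 transcripts in both cell types. Its FPKM was 195.2, 297.9 and 190.1 in BMDM replicates 1 to 3 and 25.5, 20.3 and 11.9 in BSM replicates 1 to 3. The BMDM libraries were thus far above the BSM libraries, with replicate 2 the highest. The means were 228 ± 60.8 and 19.2 ± 6.85 (SD, n = 3 each), an 11.8-fold difference and a log2 fold change of 3.53 (SE, the standard error, 0.33, limma adjusted p = 0.000109), 2.72 above the median of all genes. Sod1 exceeded 99.1% to 99.5% of the compared genes in the BMDM libraries and 86.1% to 93.6% in the BSM libraries. A near-identical copy, Gm8566, matched 72.5% of the Sod1 transcript at 95% identity or more, so fragments could have been divided between them and the Sod1 level is uncertain to that extent.

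Sod2 (ENSMUSG00000006818, mm9 chr17:13200848-13208219), the mitochondrial enzyme, was near the lower end of the set. Its FPKM was 2.59, 3.48 and 3.04 in BMDM and 0, 1.27 and 0.521 in BSM. All BMDM values were higher than any BSM value, and the gene was listed at 0 in BSM replicate 1, the library with the most genes at 0. The log2 fold change was 1.41 (SE 0.35, limma adjusted p = 0.0116), 0.61 above the median of all genes, and 1.11 without BSM replicate 1. After quantile normalization it was 0.75 and the adjusted p in limma rose to 0.116.

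Cat (ENSMUSG00000027187, mm9 chr2:103294006-103325317) encodes catalase, which splits hydrogen peroxide without a reducing partner. It had 18.6, 14.9 and 16.1 FPKM in BMDM and 2.80, 5.96 and 4.13 FPKM in BSM. The BMDM libraries lay close together, and BMDM replicate 2, which was the highest of its group for Sod1 and for the erythroid and granulocyte genes, was the lowest for Cat. The means of 16.5 ± 1.85 and 4.30 ± 1.58 (SD, n = 3 each) differed 3.85-fold, with a log2 fold change of 1.77 (SE 0.28, limma adjusted p = 0.00148), 0.96 above the median of all genes. Catalase is abundant in red cells, and without BMDM replicate 2, the library with the most erythroid transcripts, the log2 fold change was 1.83. The other BMDM libraries held erythroid transcripts too, and the part of red cells in the Cat values was not tested.

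Gpx1 (ENSMUSG00000063856, mm9 chr9:108241605-108242669), the selenium-dependent glutathione peroxidase whose TGA codon is shown above, was the next most abundant enzyme in BMDM. Its FPKM was 69.9, 105.4 and 93.1 in BMDM and 5.73, 8.79 and 5.87 in BSM. The groups were far apart, and the libraries of each lay within a narrow range. The means were 89.5 ± 18.0 and 6.80 ± 1.73 (SD, n = 3 each), a 13.2-fold difference, and the log2 fold change of 3.54 (SE 0.27, limma adjusted p = 3.79e-05) was 2.73 above the median of all genes. The value without BMDM replicate 2 was 3.41, and no near-identical copy of the transcript was found.

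Txnrd1 (ENSMUSG00000020250, mm9 chr10:82321951-82360469), the other selenoprotein and the enzyme that recycles cytosolic thioredoxin, was low in both cell types. The FPKM values were 2.16, 3.26 and 3.02 in BMDM and 0.504, 1.01 and 0.995 in BSM. The groups did not overlap, with means of 2.81 ± 0.577 and 0.836 ± 0.287 (SD, n = 3 each), a 3.36-fold difference. The log2 fold change of 1.06 (SE 0.28, limma adjusted p = 0.0140) was only 0.25 above the median of all genes. Ranked among the compared genes of the same library, Txnrd1 overlapped between the groups, exceeding 20.3% to 24.5% of them in BMDM and 17.1% to 23.4% in BSM. Its call was lost without BMDM replicate 3 (log2 fold change 1.01, limma adjusted p = 0.0566) and after quantile normalization (0.13, limma adjusted p = 0.649).

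Of the 5 peroxiredoxins, Prdx1, Prdx5 and Prdx6 were higher in BMDM, Prdx2 was higher in BSM, and Prdx4 was not tested. Prdx1 to Prdx4 are close relatives that use pairs of cysteines (the typical 2-Cys enzymes). Prdx5 is the atypical 2-Cys form, found in mitochondria, peroxisomes and cytosol. Prdx6 is the 1-Cys form, which is reduced by glutathione and also acts as a phospholipase.

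Prdx6 (ENSMUSG00000026701, mm9 chr1:163170243-163181350) had the largest ratio between group means of the 10 enzymes over all 6 libraries, though not without BSM replicate 1 (13.1, against 15.3 for Prdx5 and 14.1 for Sod1) or BSM replicate 2 (13.9, against 15.4 for Gpx1). Its FPKM was 9.73, 11.8 and 14.6 in BMDM and 0.557, 0.667 and 1.18 in BSM. The lowest BMDM library was several times the highest BSM library. The means of 12.04 ± 2.47 and 0.800 ± 0.331 (SD, n = 3 each) differed 15.1-fold, and the log2 fold change, which the added pseudocount of 1 makes smaller for such low BSM values, was 2.86 (SE 0.26, limma adjusted p = 9.94e-05). It was 2.05 above the median of all genes.

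Prdx5 (ENSMUSG00000024953, mm9 chr19:6981187-6984596) was even in BMDM, at 22.5, 27.5 and 28.4 FPKM, and uneven in BSM, at 10.6, 1.82 and 1.59 FPKM. BSM replicate 1 was well above the other 2 BSM libraries while staying below every BMDM library. The means were 26.1 ± 3.19 and 4.66 ± 5.12 (SD, n = 3 each), a 5.61-fold difference. The log2 fold change was 2.62 (SE 0.55, limma adjusted p = 0.00519), 1.82 above the median of all genes. Without BSM replicate 1 the difference was 15.3-fold and the log2 fold change 3.32 (SE 0.18).

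Prdx1 (ENSMUSG00000028691, mm9 chr4:116358149-116373427), a cytosolic typical 2-Cys enzyme, had 4.32, 7.43 and 4.88 FPKM in BMDM and 0.109, 1.37 and 1.13 FPKM in BSM. Its means of 5.54 ± 1.66 and 0.872 ± 0.672 (SD, n = 3 each) differed 6.36-fold. The log2 fold change was 1.85 (SE 0.36, limma adjusted p = 0.00389), 1.05 above the median of all genes. In contrast to Prdx5, BSM replicate 1 was the lowest library for Prdx1, and without it the difference was 4.42-fold. Copies at other loci (Gm21399 and Gm7204) matched 26% of the Prdx1 transcript. The gene also overlaps ENSMUSG00000085215 by 479 bases, which had at most 0.334 FPKM in BMDM and was 0 in BSM.

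Prdx2 (ENSMUSG00000005161, mm9 chr8:87493486-87498733), the other cytosolic typical 2-Cys enzyme, was the exception. It had 3.54, 5.59 and 2.65 FPKM in BMDM and 19.2, 11.9 and 9.16 FPKM in BSM, so that every BSM library was above every BMDM library. The means were 3.93 ± 1.51 and 13.4 ± 5.17 (SD, n = 3 each), 3.42-fold higher in BSM, with a log2 fold change of -1.53 (SE 0.34, limma adjusted p = 0.00700), or -2.34 relative to the median of all genes. Without BSM replicate 1, its highest library, the log2 fold change was -1.26 (limma adjusted p = 0.00998). Prdx2 is abundant in red cells, and the BMDM library with the most erythroid transcripts, replicate 2, was also the highest BMDM library for Prdx2. Without replicate 2 the log2 fold change was -1.76, but the other BMDM libraries held erythroid transcripts too. The part of red cells in the Prdx2 values was not tested. A copy at another locus, Tdpx-ps1, matched 37% of the Prdx2 transcript. The gene overlaps Rnaseh2a by 181 bases, and whether reads were assigned by strand is not stated. Rnaseh2a had 1.92, 1.76 and 3.98 FPKM in BMDM and 0.211, 0.717 and 0.745 FPKM in BSM, which is the opposite direction to Prdx2. The part of reads from the overlap in the Prdx2 values was not tested.

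Prdx4 (ENSMUSG00000025289, mm9 chrX:151758461-151775297), the peroxiredoxin of the endoplasmic reticulum, had 2.89, 1.99 and 2.28 FPKM in BMDM and 0.0272, 1.28 and 0.787 FPKM in BSM. The groups did not overlap, though BMDM replicate 2 and BSM replicate 2 were not far apart. When the FPKM minimum was lowered to 1 the log2 fold change was 1.06 (SE 0.32, limma adjusted p = 0.0298), and with no minimum the adjusted p in limma was 0.0883.

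Set against each other within a library, Prdx1 and Prdx2 changed places between the cell types. The ratio of Prdx2 to Prdx1 FPKM was 0.820, 0.753 and 0.543 in BMDM replicates 1 to 3, and 176, 8.67 and 8.09 in BSM replicates 1 to 3. Prdx2 thus lay below Prdx1 in every BMDM library and well above it in every BSM library, with the first BSM value resting on a Prdx1 level close to 0. Such a ratio does not depend on a factor applied to a whole library. Against Prdx5, Prdx2 was at a ratio of 0.0934 to 0.203 in BMDM and 1.81 to 6.55 in BSM, and against Prdx6 at 0.181 to 0.475 and 7.79 to 34.4. Prdx2 therefore led the peroxiredoxins in all 3 BSM libraries, where Prdx5 led them in all 3 BMDM libraries.

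Together the 10 enzymes came to 331.4, 479.3 and 358.2 FPKM in BMDM and 64.9, 54.4 and 37.3 FPKM in BSM. As a share of the FPKM of all genes this was 0.203%, 0.247% and 0.206% in BMDM and 0.0939%, 0.0725% and 0.0546% in BSM. The total of the 10 was thus also apart once the larger FPKM sums of BMDM were taken into account. Without Sod1 and Gpx1 the sum was 66.3, 75.9 and 75.0 FPKM in BMDM and 33.7, 25.3 and 19.5 FPKM in BSM. As a share of the FPKM of all genes, that remainder overlapped between the groups, with BSM replicate 1 above every BMDM library. In BMDM, the levels fell in the order Sod1, Gpx1, Prdx5, Cat, Prdx6 and Prdx1, and none of these neighbours overlapped over the 3 libraries. Below Prdx1 came Prdx2, Sod2, Txnrd1 and Prdx4, whose ranges overlapped from each gene to the next, Prdx1 and Prdx2 included. In BSM, Sod1 and Prdx2 overlapped at the top. By mean, Gpx1, Prdx5 and Cat followed with overlapping ranges, Prdx5 reaching into the range of Prdx2 through replicate 1, and all were above Prdx1, Txnrd1, Prdx6, Prdx4 and Sod2, which overlapped from each gene to the next.

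The share that each enzyme took of the summed FPKM of the 10 was compared because a factor applied to a whole library leaves it as it is. The shares are not separate results, since a change in an abundant enzyme shifts the shares of all others. Sod1 took 58.9%, 62.2% and 53.1% in BMDM and 39.2%, 37.4% and 31.9% in BSM, and Gpx1 took 21.1%, 22.0% and 26.0% in BMDM and 8.83%, 16.2% and 15.8% in BSM. Prdx2 took 1.07%, 1.17% and 0.740% in BMDM and 29.5%, 21.9% and 24.6% in BSM, a mean of 0.992% ± 0.223 against 25.3% ± 3.87 (SD, n = 3 each). They were the 3 enzymes whose shares did not overlap between the groups. The exact two-sided permutation p was 0.1 for each, the smallest that the design allows, and 0.333 after Benjamini-Hochberg adjustment over the 10 enzymes. The other 7 overlapped. In the ALEXA-Seq table, for which scaling by transcript length is not stated, Sod1 and Prdx2 shares were again apart, but Gpx1 shares overlapped, at 8.34% to 11.6% in BMDM and 4.80% to 9.77% in BSM. There the shares of Cat and Txnrd1 were higher in every BSM library. By FPKM, Cat took 3.12% to 5.60% in BMDM and 4.31% to 11.1% in BSM, and Prdx5 5.74% to 7.93% and 3.34% to 16.3%.

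**Figure D2:**
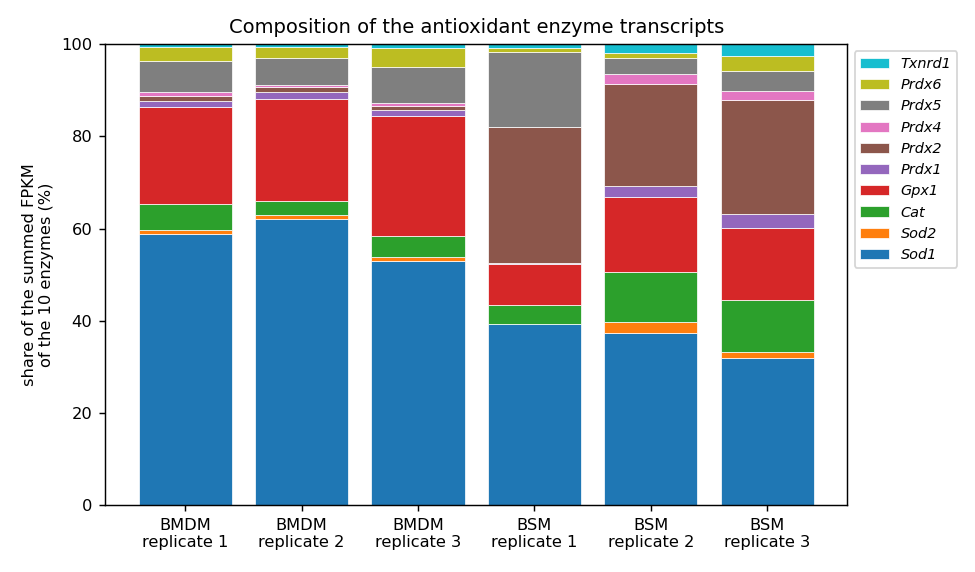
Share of each enzyme in the summed FPKM of the 10 antioxidant enzymes (%), with 1 stacked bar for each library. Sod1 (blue) and Gpx1 (red) fill most of the BMDM bars, and Prdx2 (brown) rises from about 1% of the BMDM bars to between 21.9% and 29.5% of the BSM bars.

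BSM replicate 1 departed from the other 2 BSM libraries in most of the enzymes. It had the lowest value of its group for 7 of them (Prdx1, Prdx4, Prdx6, Gpx1, Cat, Sod2 and Txnrd1) and the highest for the other 3 (Prdx2, Prdx5 and Sod1). In the labels, replicate 1 of both cell types came from male mice and replicates 2 and 3 from female mice. The study's Results text names male mice only, so the sex of replicates 2 and 3 is uncertain. Within BSM the labelled sex, the low RNA quality of replicate 1 and the library itself cannot be told apart. BMDM replicate 1, also labelled male, was the lowest of its group for 6 enzymes. Among the BMDM libraries replicate 2 was the highest for 6 enzymes, Sod1, Gpx1, Prdx1, Prdx2, Sod2 and Txnrd1. Without BSM replicate 1, or without BMDM replicate 2, the limma calls remained 8 enzymes higher in BMDM and Prdx2 higher in BSM. Of all 6364 genes, 3194 were called higher in BMDM and 738 in BSM without BSM replicate 1. Without BMDM replicate 2 these numbers were 2313 and 507.

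How many of the enzymes differed depended on how the libraries were scaled to each other. When all libraries were set to the same sum of FPKM, 15.2% of the 6364 genes were called higher in BMDM and 24.9% higher in BSM. Under that scaling 3 enzymes were called higher in BMDM, Gpx1 with a log2 fold change of 2.31, Sod1 with 2.25 and Prdx6 with 1.99, and Prdx2 was called higher in BSM with -2.68. Prdx5 (1.51), Prdx1 (1.07), Cat (0.62), Sod2 (0.78) and Txnrd1 (0.28) kept a positive sign without passing the test. Upper quartile scaling and quantile normalization called 6 enzymes higher in BMDM, all of the 8 except Sod2 and Txnrd1, and called Prdx2 higher in BSM. Over all 6364 genes, upper quartile scaling called 1379 higher in BMDM and 1051 in BSM, and quantile normalization 1378 and 1227. No enzyme changed sign under any of these scalings.

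**Figure D3:**
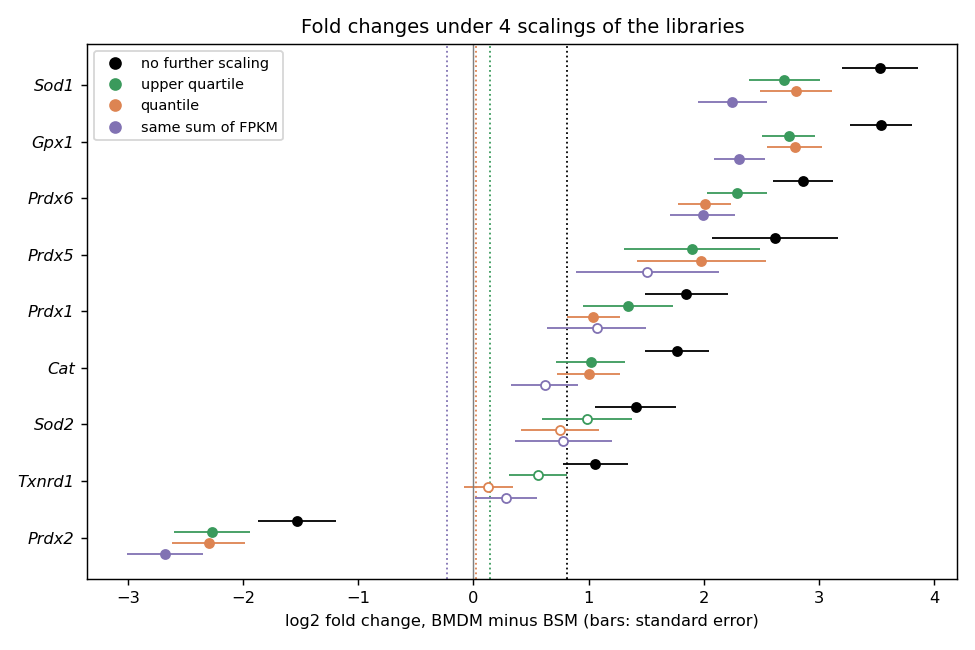
Log2 fold change (BMDM minus BSM) of the 9 enzymes tested, with standard errors, under 4 scalings of the libraries, where filled circles have a limma adjusted p under 0.05. Dotted lines mark the median of all 6364 genes under each scaling (0.81, 0.14, 0.02 and -0.23), and Sod1, Gpx1, Prdx6 and Prdx2 stay filled throughout.

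The ALEXA-Seq table, a separate quantification of the same libraries and so not an independent measurement, gave the same order of groups for all 10 enzymes. Sod1 had values of 11347, 18658 and 11245 in BMDM and 1538, 1184 and 752 in BSM, in units that are not stated. Prdx2 had values of 27.9, 43.4 and 43.4 in BMDM and 222, 122 and 96.5 in BSM. The ratios of group means were close to those of FPKM for Sod1 (11.9), Gpx1 (12.8), Prdx5 (5.28), Cat (3.48) and Prdx6 (17.9) and larger for Prdx1 (9.59). In limma on log2(value + 1) of the 6364 genes with the highest values, 7 of 9 enzymes were higher in BMDM and Prdx2 was higher in BSM (log2 fold change -1.85, adjusted p = 0.00783), against 37.1% and 10.9% of the genes tested. Sod2 was not called (3.16, SE 1.18, limma adjusted p = 0.0630), with its value again 0 in BSM replicate 1. Prdx4 was not among the genes tested there, with values of 22.2, 15.0 and 19.01 in BMDM and 0.214, 10.8 and 7.12 in BSM.

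The enzymes work within larger systems, and 4 lists of other genes of those systems, 78 genes in all, were examined in the same fit. Of 75 found in the table, 34 reached the FPKM minimum. Of these, 16 were higher in BMDM, 5 were higher in BSM and 13 did not pass the test, with a median log2 fold change of 1.02 against 0.81 for all genes. The share higher in BMDM, 47.1%, was near the 45.3% of all genes, and the share higher in BSM was 14.7% against 9.22%. Of the 34 genes, 11 reached the minimum only through BMDM and 2 only through BSM, 10 of the former being among the 16 called. With all libraries set to the same sum of FPKM the numbers were 12, 9 and 13 (background 15.2% and 24.9%), and the median was 0.00 against -0.23.

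In the glutathione system, 6 of 9 genes tested were higher in BMDM (45.3% of all genes were) and 1 was higher in BSM (9.22% of all genes), with a median of 1.85. Of the 6, Ggct, Gsto1, Gstm1, Mgst1 and Mgst2 reached the FPKM minimum only through BMDM, Gsr being the exception. Ggct overlapped between the groups by FPKM (limma adjusted p = 0.0464) and was not called from ALEXA-Seq values (limma adjusted p = 0.0640). From ALEXA-Seq values, 4 of 9 genes of the list tested there were higher in BMDM and 1 in BSM. The shares over all genes tested there were 37.1% and 10.9%. Under each of the 3 other scalings 5 were higher in BMDM and 2 in BSM. Over all 6364 genes these scalings called 968 to 1379 higher in BMDM and 1051 to 1585 higher in BSM. Gsr, the glutathione reductase that regenerates the electron donor of Gpx1, had 184, 190 and 166 FPKM in BMDM and 1.33, 2.95 and 3.41 FPKM in BSM. That 70.2-fold difference, a log2 fold change of 5.72 (SE 0.29, limma adjusted p = 6.28e-06), was far larger than that of any of the 10 enzymes. The glutathione transferase Gstm1 was higher in BMDM too (19.7, 46.0 and 22.5 FPKM against 0, 0.261 and 0.180), and the microsomal transferase Mgst1 had 11.3, 17.5 and 11.8 FPKM in BMDM, all 3 BSM libraries being listed at 0. Gsto1, an omega class transferase, was higher in BMDM as well (log2 fold change 2.01). Slc3a2, the heavy chain shared by several amino acid transporters, among them the cystine importer, was higher in BSM (-1.65). Gclc, the catalytic subunit of the enzyme that limits glutathione synthesis, had 3.92, 6.00 and 4.63 FPKM in BMDM and 8.65, 6.78 and 6.24 FPKM in BSM, a log2 fold change of -0.50 that did not pass the test (limma adjusted p = 0.123) but passed it under each of the 3 other scalings (-1.22 to -1.64).

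In the thioredoxin system and protein repair list, 5 of 10 genes tested were higher in BMDM and 3 were higher in BSM, with a median of 1.08, beside 45.3% and 9.22% of all genes. Txn1, Txn2 and Sepx1 reached the FPKM minimum only through BMDM, and Msrb2 only through BSM. From ALEXA-Seq values, 4 of 10 genes tested were higher in BMDM and 3 in BSM, beside 37.1% and 10.9% of all genes. The balance turned with scaling, to 3 higher in BMDM and 4 in BSM after quantile normalization (median 0.30) and at the same sum of FPKM (median -0.05). The background shifted as well, to 1378 and 1227 of 6364 genes after quantile normalization and 968 and 1585 at the same sum. Txn1, the cytosolic thioredoxin that Txnrd1 reduces, had 32.6, 53.6 and 39.8 FPKM in BMDM and 0.584, 2.88 and 2.01 FPKM in BSM (log2 fold change 4.00, SE 0.37). Its difference was thus much larger than that of its reductase. Txnip, which binds thioredoxin and inhibits it, went the other way, with 22.8, 30.6 and 21.5 FPKM in BMDM and 196, 183 and 162 FPKM in BSM, 7.22-fold higher in BSM (log2 fold change -2.81, SE 0.23, limma adjusted p = 5.27e-05). Sepx1, the methionine sulfoxide reductase MsrB1, had 106, 138 and 121 FPKM in BMDM and 0.566, 2.19 and 1.52 FPKM in BSM, an 85.3-fold difference. Glrx, a glutaredoxin, had a log2 fold change of 3.50. Sesn1 (-1.50) and Msrb2 (-1.43), a sestrin and the mitochondrial methionine sulfoxide reductase, were higher in BSM. Prdx3, the mitochondrial peroxiredoxin, and Srxn1, which repairs overoxidised peroxiredoxins, did not reach the FPKM minimum.

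Of the NRF2 regulators and target genes, 4 of 13 tested were higher in BMDM, none was higher in BSM and 9 did not pass the test, with a median of 0.58. The share higher in BMDM, 30.8%, was below the 45.3% of all genes. From ALEXA-Seq values, 4 of 13 genes tested were higher in BMDM and 0 in BSM, beside 37.1% and 10.9% of all genes. Under the other scalings 1 to 3 genes of the list were higher in BSM, 3 or 4 were higher in BMDM, and the median was -0.13 to -0.52. At the same sum of FPKM, 4 were higher in BMDM and 3 in BSM, against 15.2% and 24.9% of all genes. The share higher in BMDM was thus above the background there. The 4 genes called without further scaling were G6pdx (log2 fold change 3.21), Pgd (2.25), Taldo1 (1.97) and Tkt (1.80), enzymes of the pentose phosphate pathway. Taldo1 and Tkt reached the FPKM minimum only through BMDM, and Tkt was not called after quantile normalization (0.93, limma adjusted p = 0.0835). G6pdx, the entry enzyme of that pathway, had 40.3 ± 11.4 FPKM in BMDM and 3.40 ± 0.824 FPKM in BSM (SD, n = 3 each). Nfe2l2, which encodes NRF2 itself, was nearly level, with 17.2, 16.6 and 17.2 FPKM in BMDM and 14.0, 15.3 and 15.3 FPKM in BSM (log2 fold change 0.19, SE 0.20, limma adjusted p = 0.460). Its direction turned with scaling and was -1.06 with all libraries set to the same sum of FPKM (limma adjusted p = 0.00511). Fth1, the ferritin heavy chain, had 114 ± 22.4 FPKM in BMDM and 92.0 ± 18.6 FPKM in BSM (log2 fold change 0.31, limma adjusted p = 0.333), and its direction also turned with scaling, to a call for BSM at the same sum of FPKM (limma adjusted p = 0.0123). Nqo1, Hmox1, Gclm and Keap1 did not reach the FPKM minimum.

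Of 17 genes for selenoproteins and their synthesis, 4 were tested, 2 were higher in BMDM, 1 was higher in BSM and 1 did not pass the test, too few to set beside the background of 45.3% and 9.22%. From ALEXA-Seq values, 1 of 4 genes tested was higher in BMDM and 1 in BSM, again too few to set beside 37.1% and 10.9%. Sepx1, named above, is a selenoprotein too. Sep15 was higher in BMDM (log2 fold change 1.38) but was not called under the 3 other scalings. Sepp1, the selenium transport protein, was higher in BSM, with 16.7, 21.1 and 19.8 FPKM in BMDM and 55.0, 63.6 and 57.0 FPKM in BSM (log2 fold change -1.56, SE 0.21). The selenoproteins thus moved in both directions, with Gpx1 and Sepx1 higher in BMDM and Sepp1 higher in BSM under all 4 scalings.

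**Figure D4:**
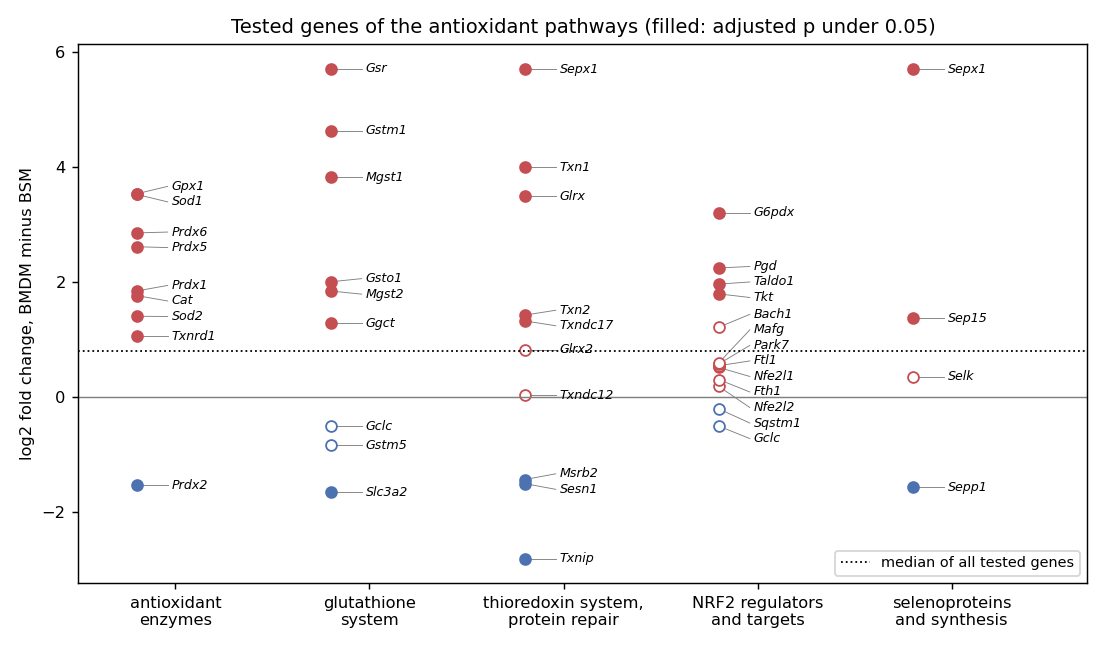
Log2 fold change (BMDM minus BSM) of every tested gene of the antioxidant enzymes and of the 4 pathway lists, with filled circles for a limma adjusted p under 0.05, red above 0 and blue below it. Gsr, Sepx1, Gstm1, Txn1 and Mgst1 lie above all 9 enzymes tested, Txnip lies lowest, and 6 of the 13 NRF2 genes lie between 0 and the dotted median of all genes.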

How the data were processed

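RNA from sorted BMDM and BSM (3 libraries each) was amplified with the Ovation RNA-Seq method and sequenced as 100-base paired-end reads on the Illumina HiSeq. The submitters' processing notes name CASAVA 1.7.0, TopHat 1.3.1, Bowtie 0.12.7, Cufflinks 1.0.3 and the mm9 build. The authors deposited gene expression as FPKM from Cufflinks, scaled by transcript length and mapped reads, and an ALEXA-Seq signal whose unit and normalization are not given in the sources used here. Neither holds read counts. The study lists the mapped reads of each library, but the fragments behind each value were not derived from them and no counting intervals were computed. A deposited ALEXA-Seq value and an FPKM of a gene come from the same reads.

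Groups came from the sample labels, which call the libraries of a group biological replicates. FPKM were compared with limma 3.58.1 (R 4.3.3; linear model, trended empirical Bayes moderation) after log2(FPKM + 1), keeping genes that reached 3 FPKM in 1 library or more, and the ALEXA-Seq signal likewise on log2(signal + 1) over as many genes. The Benjamini-Hochberg adjustment ran over all genes tested, with a threshold of 0.05. The pseudocount lessens fold changes of low genes. Folds are ratios of means. Shares were compared by exact two-sided permutation tests. Simulated data were used to test the fit. Alternatives were a pseudocount of 0.1, a minimum FPKM of 1 or none, 3 scalings, moderation without the trend, library weights, a replicate block, and leaving out each library.

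Starts in the files count from 0 (7543 of 17788 genes then have the span of GENCODE M21, against 265 otherwise) and are printed from 1. Near-identical copies were blastn 2.17.0 matches, 100 bases or longer and 95% or more identical, to transcripts of other genes in GENCODE M21. Promoter windows came from RefSeq. Analyses used Python 3.11.15, pandas 2.3.3, scipy 1.17.1 and matplotlib 3.10.9.

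The enzymes, the pathway and marker lists and the tests were chosen with earlier results of these data known. Named were all 10 enzymes, the called genes of each pathway list with the 4 largest absolute log2 fold changes, its 2 most abundant genes, and the most abundant gene of each marker list. Other genes (Rnaseh2a, ENSMUSG00000085215, Nfe2l2, Gclc, Ggct, Mgst2, Txn2, Slc3a2, Sesn1, Msrb2, Gfap, and those under the minimum) were named after their values were seen.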

Additional observations from a re-analysis of the deposited data

How the results depend on the processing

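Of 144 log2 fold changes of the enzymes under the alternatives, 133 stayed on the same side of the threshold, 11 were no longer past it, and none changed direction. With all libraries at the same sum of FPKM, the number of enzymes higher in BMDM fell to 3, those lost being Prdx1 (1.07), Prdx5 (1.51), Cat (0.62), Sod2 (0.78) and Txnrd1 (0.28), pathway genes higher in BSM numbered 9, and over all genes 968 were higher in BMDM and 1585 in BSM. Quantile normalization gave 1378 and 1227 genes and upper quartile scaling 1379 and 1051. These lost Sod2 (0.75 and 0.99) and Txnrd1 (0.13 and 0.56). Library weights gave 881 genes higher in BSM. Sod2 was not called from ALEXA-Seq values (3.16). Leaving out each library in turn gave Txnrd1 a log2 fold change between 0.92 and 1.18 by FPKM, with its call lost without BMDM replicate 3 (1.01). By ALEXA-Seq values it was lost without BMDM replicate 2 or 3 (limma adjusted p = 0.0637 and 0.0790). The causes of these changes were not tested. From ALEXA-Seq values the share differences were -8.88 points for Prdx2, 1.76 for Gpx1 and 12.6 for Sod1. Small share differences changed sign without 1 library: Prdx1 ranged from -1.38 to 0.0583, Prdx5 from -3.45 to 3.01 and Sod2 from -1.08 to 0.0857 points. In the ALEXA-Seq table, 5 enzymes were higher in BMDM without BMDM replicate 2, and 8 without BSM replicate 1 or 2. Of the 6364 genes tested there, 1600 were higher in BMDM without BMDM replicate 2. Without BSM replicate 1 or 2 there were 3082 and 2113. Prdx5 was among the calls lost without BMDM replicate 2 (limma adjusted p = 0.0509). Deviations from the group means had correlations of -0.019, -0.008 and 0.134 between libraries of the same replicate number. With 3 libraries in each group, these cannot show whether the numbers pair the libraries. With the replicate number as a block, 3471 genes were called and the enzyme counts stayed at 8 and 1. From ALEXA-Seq values the enzyme counts with the block were 8 and 1 with Sod2 added, and 2885 genes were called. That the fragments behind each value were not derived limits statements on Sod2, Txnrd1, Prdx1, Prdx4 and Prdx6 in BSM, where no library exceeded 1.37 FPKM.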
